A study of Mus musculus with 10 samples.

Results

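H3K4me1 regions that lie beside regions of higher H3K4 methylation were described here for Dnmt3a2 occupancy in mouse embryonic stem cells. Members were chosen by position alone. They were the H3K4me1 regions on chromosomes 1 to 19 and X with an H3K4me2 or H3K4me3 region no more than 500 bp away. Of 24302 H3K4me1 regions, 24286 lay on those chromosomes and 3255 of these (13.4%) were members. An H3K4me2 region alone was the neighbour of 2316 members, an H3K4me3 region alone of 618, and 321 members had both. The remaining 21031 H3K4me1 regions had neither neighbour and served as the background.

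Dnmt3a2 is a short isoform of the de novo DNA methyltransferase Dnmt3a. The ADD domain of Dnmt3a binds the histone H3 tail when lysine 4 is unmethylated, and methylation of that lysine weakens the binding. In embryonic stem cells H3K4me3 marks active and CpG-rich promoters, H3K4me2 spreads around promoters and enhancers, and H3K4me1 is typical of enhancers and of the outer flanks of promoters. An H3K4me1 region beside one of higher methylation would therefore sit at a border between these states, where both marks are present.

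The series profiled FLAG-tagged Dnmt3a2 and H3K4me3 by ChIP-seq in J1 embryonic stem cells labelled Dnmt TKO, a background without the endogenous Dnmt enzymes, at passages 7 to 10. All groups share this background and differ in the Dnmt3a2 construct they expressed, labelled WT, WWD or R. The labels list 10 samples, namely 6 of Dnmt3a2 ChIP (one labelled 1 and one labelled bulk for each construct), 3 of H3K4me3 ChIP and 1 input. The input was not analysed here, so no background was subtracted. Each table held 1 Dnmt3a2 column per construct, which could be either sample or both together. The columns stood for 24015095 reads in WT, 17259400 with WWD and 25254320 with R, and the H3K4me3 libraries for 18801269 to 27424019 reads. With 1 column per construct there was no replicate check and no test between constructs was run. All intervals are 95% intervals that cover counting of regions or reads only, and PCR copies and neighbouring regions are not independent. The ChIP cannot tell fewer cells with Dnmt3a2 at a site from less Dnmt3a2 per cell. The tables carry no gene names, and their H3K4me1 and H3K4me2 columns match no listed sample and were not used, so neither the cell identity nor these marks could be checked in these cells.

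The 3 tables did not overlap. Regions were 100 bp long, apart from a few longer ones in the H3K4me2 table, and no H3K4me1 region overlapped an H3K4me2 or H3K4me3 region. The smallest gap was 1 bp in each pairing. The sources used here do not say how regions were called, so whether overlaps had been removed cannot be told. Adjacency was thus the closest relation that a member could have.

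Members sat closer to H3K4me2 than to H3K4me3 regions. Among the 2637 members with an H3K4me2 neighbour, the median gap to the nearest one was 224 bp (quartiles 101 and 356). Among the 939 with an H3K4me3 neighbour it was 312 bp (quartiles 209.5 and 413.5). The 2 curves of neighbours by gap ran in opposite directions. Nearest H3K4me2 regions numbered 657 at gaps up to 100 bp and fell to 448 at 401 to 500 bp. Nearest H3K4me3 regions numbered 97 at gaps up to 100 bp and rose to 268 at 401 to 500 bp, with a maximum of 306 at 601 to 700 bp among the bins up to 1000 bp.

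**Figure D1:**
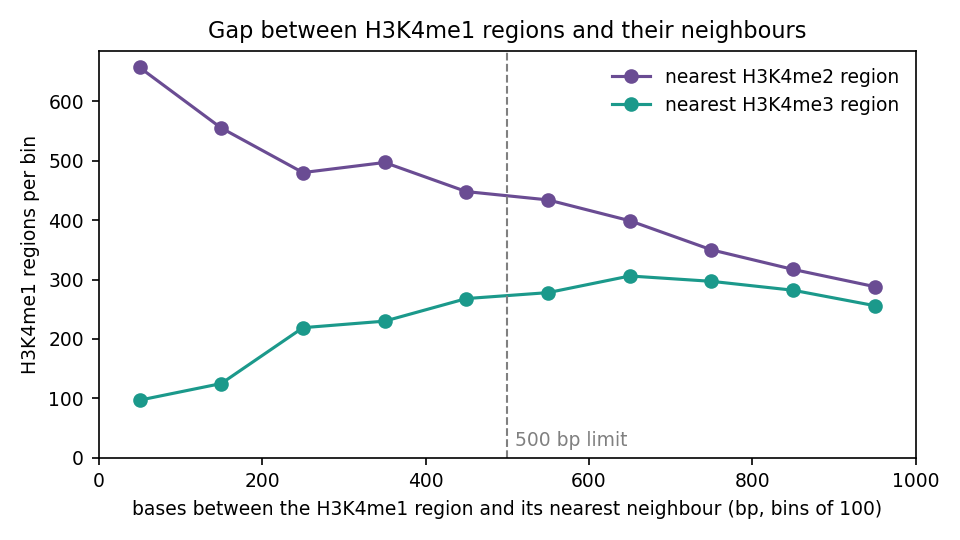
Number of H3K4me1 regions per 100 bp bin of the gap (x axis, bp) to the nearest H3K4me2 region (purple) or H3K4me3 region (green), out to 1000 bp, with the 500 bp limit as a dashed line. Nearest H3K4me2 regions fall from 657 to 448 within the limit, whereas nearest H3K4me3 regions rise from 97 to 268.

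The 321 members with both neighbours were unevenly divided by order. The shares expected from the gaps alone were not computed. In 197 of them (61.4%, exact interval 55.8 to 66.7) the nearest H3K4me2 region lay between the member and the nearest H3K4me3 region. The H3K4me3 region lay in the middle in 88 (27.4%), and the H3K4me1 region itself lay between the others in 36 (11.2%). With H3K4me2 in the middle, the median gap was 161 bp to the H3K4me2 and 385 bp to the H3K4me3 region. The H3K4me3 region of these ordered sets was also the stronger one. Its median in WT was 17.6 H3K4me3 reads per 10000000 library reads, against 10.6 where H3K4me3 was in the middle and 6.91 where H3K4me1 was. The median gap to the H3K4me3 region was shorter in the latter orders, at 203.5 and 213 bp. Over all members beside H3K4me3, WT H3K4me3 rose with this gap, and the part of the gap in the difference between orders was not tested. The 500 bp limit bears on these orders, because an H3K4me2 region in the middle must lie within the gap to the H3K4me3 region.

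Members were spread over the chromosomes much like other H3K4me1 regions. They made up between 11.5% (chromosome 13) and 15.4% (chromosome 11) of the H3K4me1 regions of a chromosome. Only 25 members lay on chromosome X. Another H3K4me1 region lay within 1 kb of 17.4% of members beside H3K4me2 only (15.8 to 18.96), but of 5.50% beside H3K4me3 only (3.84 to 7.60) and 8.72% beside both (5.87 to 12.4). Of the regions with neither neighbour, 14.1% had one so close (13.6 to 14.5). H3K4me1 regions beside H3K4me3 were therefore more often isolated from others of their kind.

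The first comparison asked how often each Dnmt3a2 protein was found at the members. At least 1 Dnmt3a2 read was present at 627 of the 3255 members in WT, or 19.3% (17.9 to 20.7), where 22.7% of all H3K4me1 regions had one. In WWD it was 1168 members, or 35.9% (34.2 to 37.6), against 39.0% of all. In R it was 537 members, or 16.5% (15.2 to 17.8), against 18.5% of all. Occupancy was thus highest in WWD, which was also the column with the fewest total reads, and a little lower at members than over the table in each construct.

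The WWD share was 1.86 times the WT share (1.71 to 2.03), and the R share was 0.856 times the WT share (0.773 to 0.949). A read in WWD with none in WT was seen at 942 members, and the reverse at 401. Over all H3K4me1 regions these patterns held for 29.7% and 13.5%. Mean signal gave the same order, with 0.362 reads per region per 10000000 in WT (0.348 to 0.375), 0.747 with WWD (0.724 to 0.770) and 0.329 with R (0.317 to 0.342). For scale, a single read was worth 0.416 in WT, 0.579 with WWD and 0.396 with R. By the shares with a read, most members held none in each column. The R to WT ratio of means was 0.910 (0.863 to 0.959). Among members occupied in 2 or all 3 columns, a set chosen by its reads, it was 1.07 (0.996 to 1.15).

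Nearness to another H3K4 methylation region went with fewer occupied regions. The share of members with a read over that of regions with neither neighbour was 0.829 in WT (0.769 to 0.893). It was 0.910 in WWD (0.866 to 0.955) and 0.876 in R (0.807 to 0.951). For members beside H3K4me2 only it was 0.851 in WT (0.781 to 0.927), 0.906 in WWD (0.856 to 0.960) and 0.865 in R (0.785 to 0.952). By share, members beside H3K4me3 only, a smaller class, were not distinguishable from regions with neither. Their ratios were 0.863 in WT (0.736 to 1.01), 0.911 in WWD (0.819 to 1.01) and 0.920 in R (0.772 to 1.10). These were close to the ratios beside H3K4me2 only, with wider intervals. Their mean scaled reads were lower, at 0.398 against 0.488 with neither in WT, 0.758 against 0.864 in WWD and 0.333 against 0.426 in R. The intervals of these means, which cover read counting only, did not overlap. With a cap of 20 reads, the ratios of means were 0.874 in WT, 0.881 in WWD and 0.856 in R. Over all members, no read in any of the 3 columns was found at 1455, or 44.7% (43.0 to 46.4), where the whole table had 39.5%. The highest count at a member was 23 reads in WT, 20 with WWD and 23 with R. Regions with neither neighbour, which were more numerous, reached 1246, 71 and 1180.

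At 500 bp and at least 1 read, the neighbour classes differed mainly in WT. In WT a read was present at 19.8% of members beside H3K4me2 only (18.2 to 21.5) and at 20.1% beside H3K4me3 only (17.0 to 23.4). Beside both it was 14.0% (10.4 to 18.3), or 45 of 321. In WWD the 3 shares were 35.8% (33.8 to 37.7), 35.9% (32.1 to 39.8) and 36.8% (31.5 to 42.3), and in R they were 16.3% (14.8 to 17.8), 17.3% (14.4 to 20.5) and 16.5% (12.6 to 21.0). The WWD and R shares lay within each other's intervals across classes. Over regions with neither neighbour, the WT share beside both was 0.603 times as high (0.460 to 0.792), against 0.932 in WWD (0.807 to 1.08) and 0.877 in R (0.685 to 1.12).

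**Figure D2:**
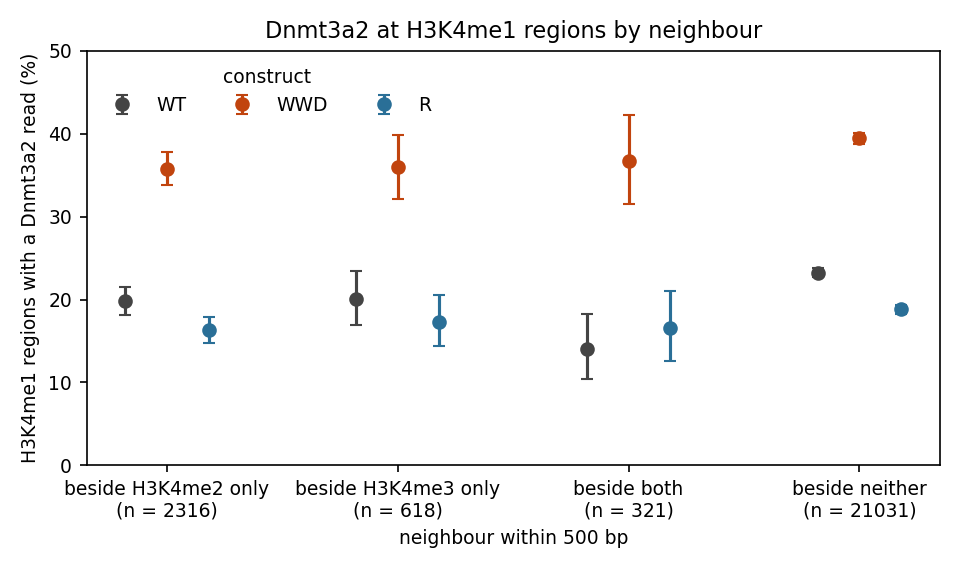
Share of H3K4me1 regions with at least 1 Dnmt3a2 read (y axis, %) by neighbour within 500 bp (x axis) in WT (grey), WWD (orange) and R (blue), with exact 95% intervals. WWD sits between 35.8% and 39.4% in every class, and the lowest point is WT beside both at 14.0%.

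The WWD to WT ratio of shares followed from this. It was 1.81 beside H3K4me2 only (1.64 to 1.99), 1.79 beside H3K4me3 only (1.48 to 2.17) and 2.62 beside both (1.93 to 3.56), against 1.70 with neither (1.65 to 1.75). The ratio beside both was 1.55 times that with neither (1.14 to 2.10), 1.45 times that beside H3K4me2 only (1.05 to 2.00) and 1.46 times that beside H3K4me3 only (1.02 to 2.10). Beside a single kind of neighbour the ratio was not distinguishable from that with neither, at 1.07 times (0.961 to 1.18) for H3K4me2 only and 1.05 times (0.870 to 1.28) for H3K4me3 only. The value beside both rests on 45 WT regions. Counting only regions with at least 2 reads, it was 1.35 times that with neither, with an interval that included 1 (0.952 to 1.93).

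For R against WT the ratio was 0.823 beside H3K4me2 only (0.729 to 0.929), 0.863 beside H3K4me3 only (0.686 to 1.08) and 1.18 beside both (0.826 to 1.68). With neither neighbour it was 0.810 (0.781 to 0.840). Beside both it was 1.45 times that with neither (1.02 to 2.08). With at least 2 reads the R to WT ratio beside both turned to 0.923 (0.602 to 1.42). The 2 mutant ratios share the WT column, so a low WT value beside both raises them together. The WWD to R ratio, which does not use WT, was 2.20 beside H3K4me2 only (1.98 to 2.44), 2.07 beside H3K4me3 only (1.70 to 2.53), 2.23 beside both (1.70 to 2.92) and 2.10 with neither (2.03 to 2.16). These 4 values lay within each other's intervals, apart from the narrow interval with neither.

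**Figure D3:**
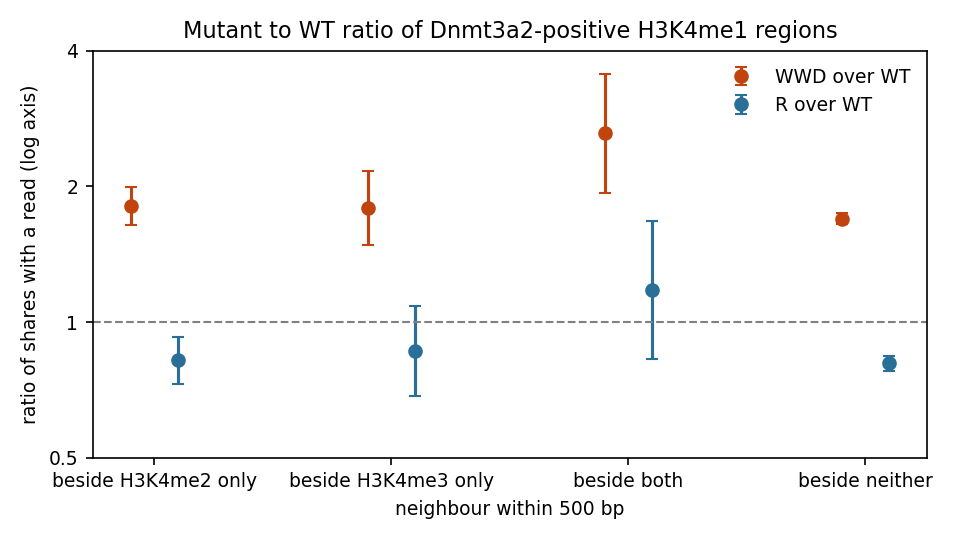
Ratio of the share of regions with a Dnmt3a2 read in WWD (orange) or R (blue) to that in WT (y axis, log scale) by neighbour within 500 bp, with 95% intervals and a dashed line at 1. The WWD ratio is 2.62 beside both and between 1.70 and 1.81 elsewhere.

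Reads came in clumps rather than singly. Among occupied members the average was 4.51 reads in WT, 3.59 with WWD and 5.04 with R, and only 18.98%, 27.1% and 22.5% of them held exactly 1. At least 5 reads were present at 258 members in WT, or 7.93%, where 9.78% of all H3K4me1 regions had as many. In WWD it was 335 members (10.3%, against 11.9% of all) and in R 256 (7.86%, against 9.24% of all). The WWD excess was smaller among these regions. At least 10 reads were present at 50 members in WT, where 2.11% of all H3K4me1 regions had as many, at 47 with WWD (1.89% of all) and at 67 with R (2.52% of all). WWD was not the highest at this minimum, at members or over the whole table. These minimums are not scaled to the totals, and WWD had the fewest reads in all.

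Members with and without a WT read had similar WWD shares. Of the 627 members with a read in WT, 36.0% also had one in WWD (32.3 to 39.9), and of those without a WT read 35.8% did (34.0 to 37.7). Over all H3K4me1 regions these shares were 40.6% (39.3 to 41.9) and 38.5% (37.8 to 39.2). R reads were found somewhat more often at members with a read of another construct. A WWD read was present at 42.8% of members with an R read (38.6 to 47.1) and at 34.5% of those without (32.7 to 36.3). An R read was present at 19.6% of members with a WT read (16.6 to 22.9) and at 15.8% of those without (14.4 to 17.2). Over all H3K4me1 regions the corresponding shares were 42.1% and 38.3% for WWD by R, and 20.6% and 17.9% for R by WT, so the sharing was not limited to members. All 3 columns had a read at 47 members, or 1.44% (1.06 to 1.92), where the whole table had 2.02%.

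Individual members show how uneven the counts were. Within each neighbour class they were taken as those with the largest difference in scaled reads each way, or with reads in all 3 columns, so their differences are a description. Folds against 0 reads use a floor of 3 reads per library. Beside H3K4me2 only, chr9:120827810-120827909 (mm9) held 0 reads in WT, 20 with WWD and 2 with R, at least 9.28-fold higher in WWD than in WT. Its H3K4me2 neighbour, 225 bp away, held 2 in WT, 1 with WWD and 0 with R. A member rich in one construct thus had a neighbour that was nearly empty. In the other direction chr9:71338160-71338259 held 22 reads in WT and 0 in both mutants, at least 5.27-fold lower in WWD and 7.71-fold lower in R. Its H3K4me2 neighbour, 34 bp away, held no read in any column. For R, chr12:73922738-73922837 held 23 reads in R and 0 in WT and WWD.

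Beside H3K4me3 only, the highest counts were lower, in a class of 618 members against 2316 beside H3K4me2 only. At chr6:49114775-49114874 WWD had 14 reads, and WT and R had 0, at least 6.49-fold higher in WWD than in WT. The H3K4me3 region 183 bp away held 4 Dnmt3a2 reads in WWD alone, and 8 H3K4me3 reads in WT, 46 with WWD and 0 with R. Both assays were therefore highest in WWD at this site. At chr6:67187405-67187504 there were 21 reads in WT, 1 with WWD and 0 with R, beside an H3K4me3 region with 12 H3K4me3 reads in WT, 59 with WWD and 21 with R. At chr3:68524199-68524298 there were 14 reads in R alone, beside a region with 3 H3K4me3 reads in WT and 0 in the mutants.

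Beside both, chr11:102850878-102850977 held 11 WWD reads but 0 for WT and R, at least 5.10-fold higher in WWD than in WT. The H3K4me2 region 160 bp away and the H3K4me3 region 486 bp away held no Dnmt3a2 read, although the latter held 44 H3K4me3 reads in WT, 14 with WWD and 23 with R. At chr7:4609453-4609552 both mutants had reads, with 10 for WWD and 9 for R, against 0 for WT. Its H3K4me3 neighbour held 54 H3K4me3 reads in WT, 60 with WWD and 47 with R, raw counts that are not scaled to the library totals. The opposite pattern was found at chr2:132704623-132704722, with 13 reads in WT and 0 in both mutants. Reads in all columns were present at 4 members of this class, and the highest minimum was at chr3:97495230-97495329, with 7 in WT, 4 with WWD and 6 with R. Its H3K4me3 neighbour held a single H3K4me3 read, in WWD. Beside H3K4me2 only the highest minimum was at chr10:94963257-94963356, with 5 in WT, 5 with WWD and 6 with R.

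The next comparison set the members beside their neighbours. Of the 2624 H3K4me2 regions next to a member, 19.6% had a Dnmt3a2 read in WT (18.0 to 21.1), 32.6% with WWD (30.8 to 34.4) and 19.4% with R (17.9 to 21.0). Their members had one in 19.1%, 35.9% and 16.3%. Intervals of members and H3K4me2 neighbours overlapped in WT and WWD, and in R the neighbours were the more often occupied. The H3K4me3 regions had lower shares than their members, although in R the intervals overlapped. Of the 953 next to a member, 12.0% had a read in WT (9.97 to 14.2), 30.01% with WWD (27.1 to 33.0) and 12.9% with R (10.8 to 15.2), against 18.0%, 36.2% and 17.0% of the members beside them. Even so, they were more often occupied than other H3K4me3 regions, although in WT the intervals overlapped. Of those other regions 9.82% had a read in WT (9.50 to 10.2), 24.7% with WWD (24.3 to 25.2) and 9.69% with R (9.37 to 10.03). H3K4me2 regions beside a member also exceeded the rest of their table, where the shares were 15.8%, 28.5% and 15.2%.

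In WT, neighbours of occupied and of empty members had similar shares. Nearest H3K4me2 regions had a WT read in 19.9% of cases where the member had one (16.5 to 23.6) and in 19.5% where it had none (17.8 to 21.2). In R these shares were 24.0% (19.99 to 28.3) and 18.9% (17.3 to 20.6), and in WWD 34.9% (31.8 to 38.0) and 31.3% (29.1 to 33.6). For nearest H3K4me3 regions the WT shares were 12.4% (7.86 to 18.4) and 12.2% (9.98 to 14.7), while in R they were 18.8% (13.0 to 25.7) and 11.8% (9.63 to 14.3). Both WWD and R shares were higher beside an occupied member, but the intervals overlapped in every pair. Chromatin was cut to 160 to 480 bp, per the labels, so a single fragment could reach both regions of many pairs, and the part of this in the values was not tested.

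H3K4me3 itself was low at the H3K4me3 regions beside members. In WT the median of the 635 regions beside members near H3K4me3 only was 6.91 reads per 10000000 (quartiles 1.06 and 18.1). It was 13.8 at the 320 regions beside members near both (quartiles 5.32 and 33.5) and 22.9 at all 31339 other H3K4me3 regions. The same order held in WWD, at 6.15, 13.5 and 19.99, and in R, at 4.01, 10.6 and 17.9. The median beside members near H3K4me3 only was thus 0.302 times that of other regions in WT, 0.308 times in WWD and 0.224 times in R. Beside both it was 0.605, 0.673 and 0.592 times. H3K4me3 regions beside members without an H3K4me2 neighbour were therefore the weakest of the groups. Whether these H3K4me3 regions had an H3K4me2 region nearby themselves was not tested.

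**Figure D4:**
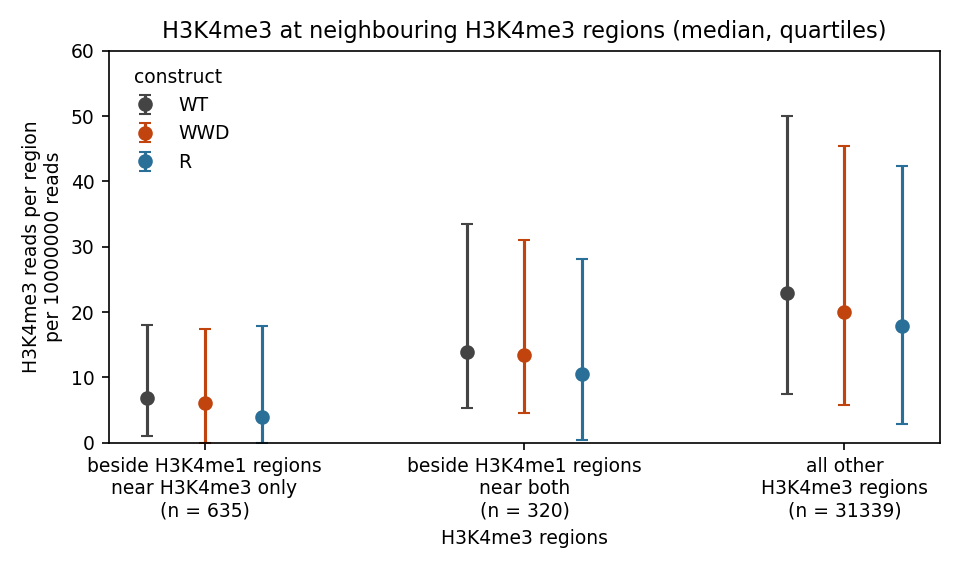
H3K4me3 reads per region per 10000000 library reads (y axis) at H3K4me3 regions beside H3K4me1 regions near H3K4me3 only, beside those near both, and elsewhere, in WT (grey), WWD (orange) and R (blue), with points for medians and bars for quartiles. In WT the medians step from 6.91 to 13.8 to 22.9.

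Many of these neighbours held no H3K4me3 read at all. Beside members near H3K4me3 only, 19.7% had none in WT (16.7 to 23.0), 28.8% with WWD (25.3 to 32.5) and 35.7% with R (32.0 to 39.6), where all H3K4me3 regions had none in 8.17%, 11.9% and 17.9%. Beside both the shares were 8.44% in WT (5.63 to 12.0), 12.8% with WWD (9.35 to 17.0) and 22.8% with R (18.3 to 27.8). No read of any library was found at 73 of the 953 neighbours, or 7.66% (6.05 to 9.54), where all H3K4me3 regions had 4.07%. An empty region in R with reads in the other constructs was seen at 109 of the 953 neighbours, or 11.4% (9.49 to 13.6), and at 7.82% of other H3K4me3 regions (7.52 to 8.12). H3K4me3 also rose with the gap. In WT the median at the nearest H3K4me3 region was 3.72 reads per 10000000 at gaps up to 100 bp, 6.91 at 201 to 300 bp and 14.4 at 401 to 500 bp. It reached 22.9 at 901 to 1000 bp, the level of other regions.

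Differences in H3K4me3 between constructs were somewhat more frequent upward at these neighbours than elsewhere. Over all 953 neighbours, 11.1% were over 2-fold higher in WWD than in WT (9.20 to 13.3), against 8.36% of other H3K4me3 regions (8.06 to 8.68). For R it was 12.2% (10.2 to 14.4) against 8.97% (8.65 to 9.29). Downward the intervals overlapped, at 17.5% (15.2 to 20.1) against 15.4% (14.97 to 15.8) for WWD and 27.7% (24.9 to 30.7) against 24.6% (24.1 to 25.1) for R. The neighbours held fewer H3K4me3 reads than other regions, and the part of this in the differences was not tested. Log2 ratios used reads per 10000000 plus a pseudocount of 3.72. Beside members near H3K4me3 only, 74 of 635 regions (11.7%) were over 2-fold higher in WWD than in WT and 115 (18.1%) were over 2-fold lower, against 8.44% and 15.4% of all H3K4me3 regions. In R, 85 (13.4%) were higher and 176 (27.7%) lower, against 9.06% and 24.7% of all. Beside both, 33 of 320 exceeded 2-fold upward with WWD and 52 downward, and with R it was 32 and 88. The median log2 ratio over all 953 neighbours was -0.05 in WWD and -0.19 in R, and over all H3K4me3 regions it was -0.13 and -0.25. With each library centred on the latter medians, the counts beside members near H3K4me3 only became 87 upward and 90 downward with WWD, and 112 and 132 with R. Beside both they became 45 and 68 with R. Lower values in the mutants thus outnumbered higher ones under both scalings, but by little in WWD once centred. Before centring the same held over all H3K4me3 regions, so this lean was not particular to the neighbours. Centred shares over all H3K4me3 regions are not given here.

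Among neighbours above the median level, those with the largest H3K4me3 differences give examples. At chr17:12935336-12935435, 7 H3K4me3 reads in WT stood against 82 in WWD and 133 in R, and the member at chr17:12935827-12935926 held no Dnmt3a2 read in any column. At chr1:75121649-75121748 there were 226 H3K4me3 reads in WT, 253 with WWD and 23 with R, again with no Dnmt3a2 read at the member. At chr8:9978525-9978624 there were 37 in WT, 1 with WWD and 233 with R, and here the member held 9 Dnmt3a2 reads in WT, 7 with WWD and 0 with R.

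Dnmt3a2 at members was also set beside the H3K4me3 of the neighbour. The 939 members beside H3K4me3 were split by the mean H3K4me3 of their nearest H3K4me3 region over the 3 libraries, with regions empty in all libraries kept apart. In WT, a Dnmt3a2 read was present at 21 of 71 members beside an empty region, or 29.6% (19.3 to 41.6). It was present at 19.7% in the lowest of 3 equal parts (15.2 to 24.7), 16.3% in the middle (12.2 to 21.0) and 15.2% in the highest (11.3 to 19.9). In WWD the shares were 25.4% beside empty regions (15.8 to 37.1), then 39.3% (33.7 to 45.2), 37.02% (31.4 to 42.9) and 34.9% (29.5 to 40.8). In R they were 9.86% (4.06 to 19.3), then 21.4% (16.8 to 26.6), 15.9% (11.9 to 20.7) and 15.6% (11.6 to 20.3). The WWD share at members was above the WT share in the 3 parts with H3K4me3 but not beside empty regions. There 18 members had a read in WWD, 21 in WT and 7 in R, and the WT and WWD intervals overlapped. The nearest H3K4me3 regions of those 71 members had a Dnmt3a2 read in 12.7% of cases in WT, 38.0% with WWD and 8.45% with R. At the empty regions themselves WWD was thus above WT. The WT share at members fell at each step, and neighbouring intervals overlapped within each construct. A trend across parts was not tested. This split was made after the other values were known.

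**Figure D5:**
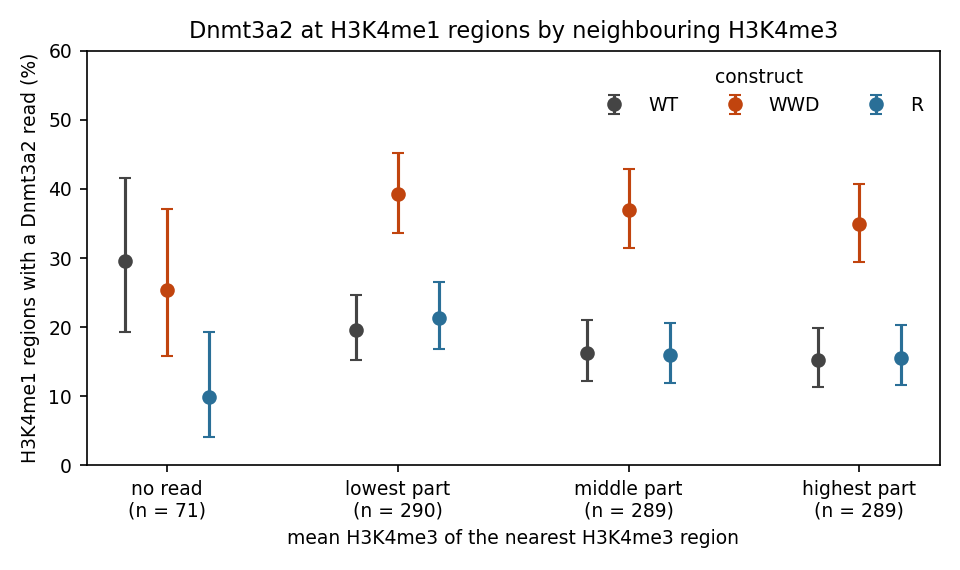
Share of members with a Dnmt3a2 read (y axis, %) by the mean H3K4me3 of their nearest H3K4me3 region (x axis, no read or 3 equal parts) in WT (grey), WWD (orange) and R (blue), with exact 95% intervals. WWD lies above WT in the 3 parts with H3K4me3, and beside the 71 empty regions WT is at 29.6% and WWD at 25.4%, with overlapping intervals.

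Chromosome 8 had the highest share of members with a read in WT, at 27.3% (20.8 to 34.5). Its R share, 20.5% (14.8 to 27.2), was level with that of chromosome 1, at 20.4% (14.9 to 26.9). Its WWD share was 43.8% (36.3 to 51.4), second to chromosome 14 at 45.8% (36.1 to 55.7). H3K4me1 regions of chromosome 8 with neither neighbour also had high shares, at 27.7% in WT, 48.7% with WWD and 23.3% with R, so the high shares were not limited to members. On chromosome X, 4 of 25 members had a read in WT, 2 with WWD and 3 with R. Without chromosome 8 or without chromosome X each share over all members stayed within its interval.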

How the data were processed

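The submitters' processing notes name Bowtie and mm9. The sources used here give no version, read filter or method of region calling. The deposited tables give log2 values in 100 bp regions. A total and an effective total stand beside each column, per the file headers, and the values follow log2 of 1 plus their ratio times whole reads plus a random amount below 1, rounded to 2 decimals. That form was inferred from the numbers themselves. Whole reads were recovered by inverting it, and a value spanning 2 read numbers went to the likelier one. In simulated H3K4me1 tables of 24302 regions, 99.3% to 99.7% of values up to 50 reads came back exact, which tests the rounding and not the form.

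Members and settings were chosen with earlier results of these data known. The Dnmt3a2 columns name a construct but not a sample, so no test between constructs and no left-out replicate was run. The input was not analysed here. A further 2 columns, of H3K4me1 and H3K4me2, matched no listed sample and were not used. Shares have exact Clopper-Pearson intervals, means exact Poisson intervals, and ratios log-scale intervals over regions. The H3K4me3 pseudocount, 3.72, is the 10th percentile of the positive values. The named regions were, per neighbour class, up to 4 members with the largest difference each way for each mutant against WT, among those with at least 5 reads in either column, and the 5 with the highest lowest count. For H3K4me3 they were the 3 strongest log2 ratios each way among neighbours above the median level. Examples from these lists are printed. Gene lists were not used, because the gene table at hand is on another assembly. Alternatives covered distance, clustering, chromosome ends, chromosomes 8 and X, read minimum, a cap of 20 reads, pseudocount, centring and rounding down. Python 3.11.15, numpy 2.4.6, pandas 2.3.3, scipy 1.17.1 and matplotlib 3.10.9 were used.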

Additional observations from a re-analysis of the deposited data

How the results depend on the processing

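In all, 39 results were recomputed under alternatives, giving 210 values. Of these 158 stayed within the main value's 95% interval or, for counts, within 1.5 times the main count, 51 moved beyond that and 1 reversed. Thinning to 1 member per 1000 bp, leaving out chromosome 8, chromosome X or the first 5 Mb of each chromosome, rounding reads down and a cap of 20 reads moved none of the values they were run on.

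With at least 2 reads, shares of members were 15.6% in WT, 26.2% with WWD and 12.8% with R, and the WWD to WT ratio was 1.68. By class they were 15.7%, 26.3% and 13.0% beside H3K4me2 only, 17.2%, 25.7% and 12.8% beside H3K4me3 only, and 12.1%, 26.2% and 11.2% beside both. Fewer regions passed by construction. The R to WT ratio beside both went from 1.18 to 0.923 (0.602 to 1.42). It changed direction but is among the 158, because the main interval includes 1 and holds the new value, a reading adopted after the values were seen. The WWD to WT ratio beside both over that beside neither was 1.17 at 1000 bp and 1.35 with at least 2 reads. At 10 or more reads in place of 5, counts were 50 in WT, 47 with WWD and 67 with R, and over all H3K4me1 regions 512, 458 and 613.

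At 1000 bp, which adds members, the mean was 0.397 in WT and 0.361 in R, with a WWD to WT ratio of 1.90. H3K4me2 neighbours had a WWD read in 30.8% and H3K4me3 neighbours in 26.3%. Members with a read in at least 2 of 3 columns, a set chosen by its reads, had means of 1.18 in WT, 1.83 with WWD and 1.27 with R. The WWD to WT ratio was then 1.55, and the R to WT ratio reversed from 0.910 to 1.07 (0.996 to 1.15). As differences of mean deposited log2 values, the folds were 1.20 for WWD and 0.973 for R.

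Counts of H3K4me3 neighbours past 2-fold depended most on the settings. They are given as WWD higher, WWD lower, R higher and R lower. With the median as pseudocount they were 2, 3, 9 and 21 beside H3K4me3 only and 0, 4, 5 and 11 beside both. Above the median level they were 6, 16, 12 and 34, and 3, 10, 14 and 28. At 1000 bp they were 133, 233, 163 and 332, and 129, 199, 120 and 337. With the 1st percentile as pseudocount, WWD beside H3K4me3 only gave 113 and 187. Lower outnumbered higher in each of these, as over all H3K4me3 regions at the main settings. Shares over all H3K4me3 regions under these alternatives are not given here.

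No paired analysis was possible because each construct has 1 Dnmt3a2 column with no replicate number. Leaving out replicates and subtracting the input were not run, and requiring overlap left no member.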
